A study of Mus musculus with 12 samples.

Results

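The mRNA levels of 31 genes of glycolysis and of the response to low oxygen were described in ATDC5 cells, a mouse line that the labels call cartilage progenitor cells of WT genotype. The genes were taken by symbol from a count table of 54532 genes: 19 encode glycolytic enzymes, their regulators and transporters, and 12 are other targets of the hypoxia-inducible factors (HIFs). Cells grown at 37 °C in high-sugar DMEM with FBS, under air with added CO2, then spent 10 min at 37 °C, at 40 °C or at 44 °C, with 4 biological replicates at each temperature. All 3 groups are the same cell line with no genetic change named between them, no group is labelled as kept in low oxygen, and no differentiation supplement is named. The time from heating to RNA extraction is not given. The labels do not say whether the replicates came from separate cultures, so p-values measure the spread between these libraries.

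Glycolysis splits glucose into pyruvate in the cytosol, yielding ATP without oxygen, and lactate dehydrogenase then regenerates the NAD+ it needs. HIFs are transcription factors whose alpha subunits are hydroxylated by prolyl hydroxylases and destroyed when oxygen is plentiful. When oxygen is scarce they persist and raise the transcription of most glycolytic genes and of genes for vessel growth, collagen hydroxylation and mitophagy. Growth plate cartilage has no vessels, and chondrocytes in it are known to depend on HIF and on glycolysis.

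HIF binds a short core that can be written ACGTG, or CACGT on the other strand. The bases upstream of the members' RefSeq starts were searched for that form on both strands (RefSeq promoters, build GRCm38.p6). Other forms were not searched, and the core below means this form. Of the 31 members, 30 matched an entry of that table, Ero1l under its newer symbol Ero1a, and Ndrg1 had no entry. The core was present within 250 bases upstream in 23 of the members' 47 entries (48.9%), against 21.3% of the entries of all genes tested and 16.6% of all 32851 entries. It was in 10 of 16 entries of the other HIF targets (62.5%) and in 13 of 31 entries of enzymes and transporters (41.9%). Counted by gene, 19 of 30 members had it in at least 1 entry, against 24.9% of the 10112 tested genes in the table. Among those members are Pgam1, Vegfa and Egln3, for which no entry's first transcribed bases were found in a transcript of the gene. CACGTG, which reads the same on both strands, counts as 2 overlapping matches and is also the E-box of other factors, so a match is a description of letters and not a site. The 150 bases before the start are printed for 4 members, with each core in capitals. Ero1l and Bnip3 are shown because they had the largest estimated differences between 44 °C and 37 °C, Pkm because it changed with temperature, and Ldha because it carries the most matches of any member. Ero1l lies on the minus strand (chr14:45318573-45318722) and has 1 match. Bnip3 lies on the minus strand (chr7:138909507-138909656) and has 2 matches. Ldha lies on the plus strand (chr7:46845654-46845803) and has 5 matches, in an entry that starts 4329 bases from the start of the gene in the count table. The first transcribed bases of this entry were not found in a transcript of Ldha. Those of its other entry were found, and that entry does not hold the core. For Ero1l, Bnip3 and Pkm those of the printed entry were found. Pkm lies on the plus strand (chr9:59656426-59656575) and has 0 matches in this entry, while the other of its 2 entries holds 1.
Ero1l: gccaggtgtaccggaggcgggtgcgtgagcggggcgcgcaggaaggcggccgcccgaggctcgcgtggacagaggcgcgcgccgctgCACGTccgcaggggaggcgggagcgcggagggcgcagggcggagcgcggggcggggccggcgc
Bnip3: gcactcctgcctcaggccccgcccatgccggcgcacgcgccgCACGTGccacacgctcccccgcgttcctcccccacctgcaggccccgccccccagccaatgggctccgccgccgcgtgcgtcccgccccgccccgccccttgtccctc
Ldha: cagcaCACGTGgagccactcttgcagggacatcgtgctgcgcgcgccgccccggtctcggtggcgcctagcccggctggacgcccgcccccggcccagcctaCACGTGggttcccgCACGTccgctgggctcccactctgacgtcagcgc
Pkm: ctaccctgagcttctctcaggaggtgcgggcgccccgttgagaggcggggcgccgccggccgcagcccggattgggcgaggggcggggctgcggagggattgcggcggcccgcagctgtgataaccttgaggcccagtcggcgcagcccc

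The libraries held 16269026 to 19506705 counted reads, and 14424 genes passed the filter on low counts, among them all 31 members. Levels are given as CPM, the counts per 1000000 reads, with library sizes adjusted by edgeR's TMM factors. Only the sums over the marker lists use the unadjusted library totals. Libraries of the same temperature differed: 37 °C replicate 1, 40 °C replicate 4 and 44 °C replicate 1 stood high and 40 °C replicate 2 and 44 °C replicates 2 and 4 stood low for most members, and values with libraries left out are given beside the results. Hspb1, a small heat shock protein that served as a check of the heating, averaged 71.3 ± 7.77 CPM (SD, n = 4) in the 37 °C libraries, 66.4 ± 6.05 in the 40 °C libraries and 221 ± 22.8 in the 44 °C libraries. Of 13 mesenchymal and chondroprogenitor markers 11 passed the filter and 2 fell at 44 °C against 37 °C, and their sum ranged over 640 to 754, 588 to 669 and 489 to 645 CPM at 37 °C, 40 °C and 44 °C. The cartilage matrix genes Col2a1 and Acan were at only 1.21 ± 0.230 and 2.13 ± 0.420 CPM at 37 °C (SD, n = 4), while the cartilage factor Sox9 was at 54.2 ± 10.2 CPM. Of 7 smooth muscle and perivascular markers 3 passed the filter and all 3 fell at 44 °C against 37 °C, and the sum ranged over 204 to 233, 213 to 261 and 135 to 163 CPM. Of 6 endothelial markers 4 passed the filter and 2 rose, and the sum ranged over 4.01 to 4.44, 4.33 to 5.08 and 5.42 to 7.35 CPM. Of 4 epithelial markers 3 passed the filter and 1 fell: the keratin Krt14 was at 33.6 ± 5.90, 31.2 ± 5.41 and 23.9 ± 2.82 CPM (SD, n = 4; log2 fold change −0.49, edgeR adjusted p = 0.0292), while Krt5 was at 0 in all 12 libraries. Of 7 leukocyte and macrophage markers Adgre1 and Cd3e were at 0 in all 12, and only Cd68 passed the filter, at 31.5 ± 5.77, 25.3 ± 3.45 and 23.9 ± 5.17 CPM (−0.40, adjusted p = 0.0935). Of 5 adipocyte markers Adipoq and Lep were at 0 in all 12, and only Fabp4 passed the filter, with the sum of the list between 0.0592 and 1.02 CPM. Of 5 skeletal muscle and 5 red cell markers none passed, and Myod1, Myog, Hba-a2 and Hbb-bs were at 0 in all 12. Over all genes tested, 7.11% were called lower and 6.58% higher at 44 °C against 37 °C. The part of these marker lists in the results that follow was not tested, and in bulk RNA fewer cells of a type and less RNA per cell cannot be told apart.

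Per kilobase of the length the table gives each gene, averaged over the 12 libraries, the highest member was Pkm, the pyruvate kinase of the last step of glycolysis, at 713 CPM per kb. Pgk1, phosphoglycerate kinase, stood at 584 CPM per kb, Tpi1, triosephosphate isomerase, at 373, and Ldha, the lactate dehydrogenase subunit that favours lactate production, at 367. The aldolase Aldoa followed at 298, the phosphoglycerate mutase Pgam1 at 255 and the enolase Eno1 at 227. The row of Gapdh, glyceraldehyde phosphate dehydrogenase, was at only 63.1, near the isomerase Gpi1 at 65.9. Other early steps also stood below Eno1 on that scale: the glucose transporter Slc2a1 was at 85.0 CPM per kb, the hexokinases Hk2 and Hk1 at 27.9 and 23.0, and the phosphofructokinases Pfkl, Pfkp and Pfkm at 46.9, 29.4 and 21.1. The lactate exporter Slc16a3 was nearly silent, with 6 to 29 reads per library. Among the other HIF targets the mitophagy receptor Bnip3 was highest at 71.0 CPM per kb. The vessel growth factor Vegfa followed at 68.9 CPM per kb and Ero1l, an oxidase that helps form disulfide bonds in the endoplasmic reticulum, at 64.1, while the peptide hormone gene Adm was lowest at 3.26. Ndrg1 stood at 60.3 on that scale but was the highest of these targets in CPM, with a mean of 397. The order of members rests on the table's lengths and differs with transcript lengths. Ndrg1 has 6596 bases there and 2889 in its longest protein-coding transcript, and Eno1 has 5379 and 2027.

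At 44 °C against 37 °C, 2 of the 31 members fell and none rose: Pkm and Eno1, both of the lower, pyruvate-forming part of glycolysis (edgeR quasi-likelihood test, Benjamini-Hochberg adjusted p under 0.05). The background is 7.11% of all genes tested called lower, 6.58% called higher and 13.7% called in either direction, and a count of 2 of 31 lies near it. Most members had estimates below 0. The members varied together between libraries, as described below, so their signs are not independent here or in the other comparisons. Of 31 log2 fold changes 29 were below 0, with a median of −0.25, whereas 50.03% of all genes tested lay below 0 with a median of −0.00034. Enzymes and transporters had a median log2 fold change of −0.17, with 17 of 19 below 0. Other HIF targets had a median of −0.29, with 12 of 12 below 0. Without adjustment, 6 enzymes and 5 HIF targets had p under 0.05, all lower, and 15.2% of all genes did so in that direction. The median of the 31 members moved to −0.16 on leaving out 37 °C replicate 1 or 44 °C replicate 4 and to −0.15 on leaving out 44 °C replicate 2. The number of members called ran from 1 to 10 as each library was left out. It was 10 when 44 °C replicate 1 was left out, 5 when 40 °C replicate 2 was, and 1 when any 37 °C library, 40 °C replicate 1 or 3, or 44 °C replicate 2 or 4 was. Calls over all genes moved as well, from 1975 with all libraries to 3355 without 44 °C replicate 1 and 979 without 37 °C replicate 1. The change in the number of members is therefore not read as a result about the members.

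**Figure D1:**
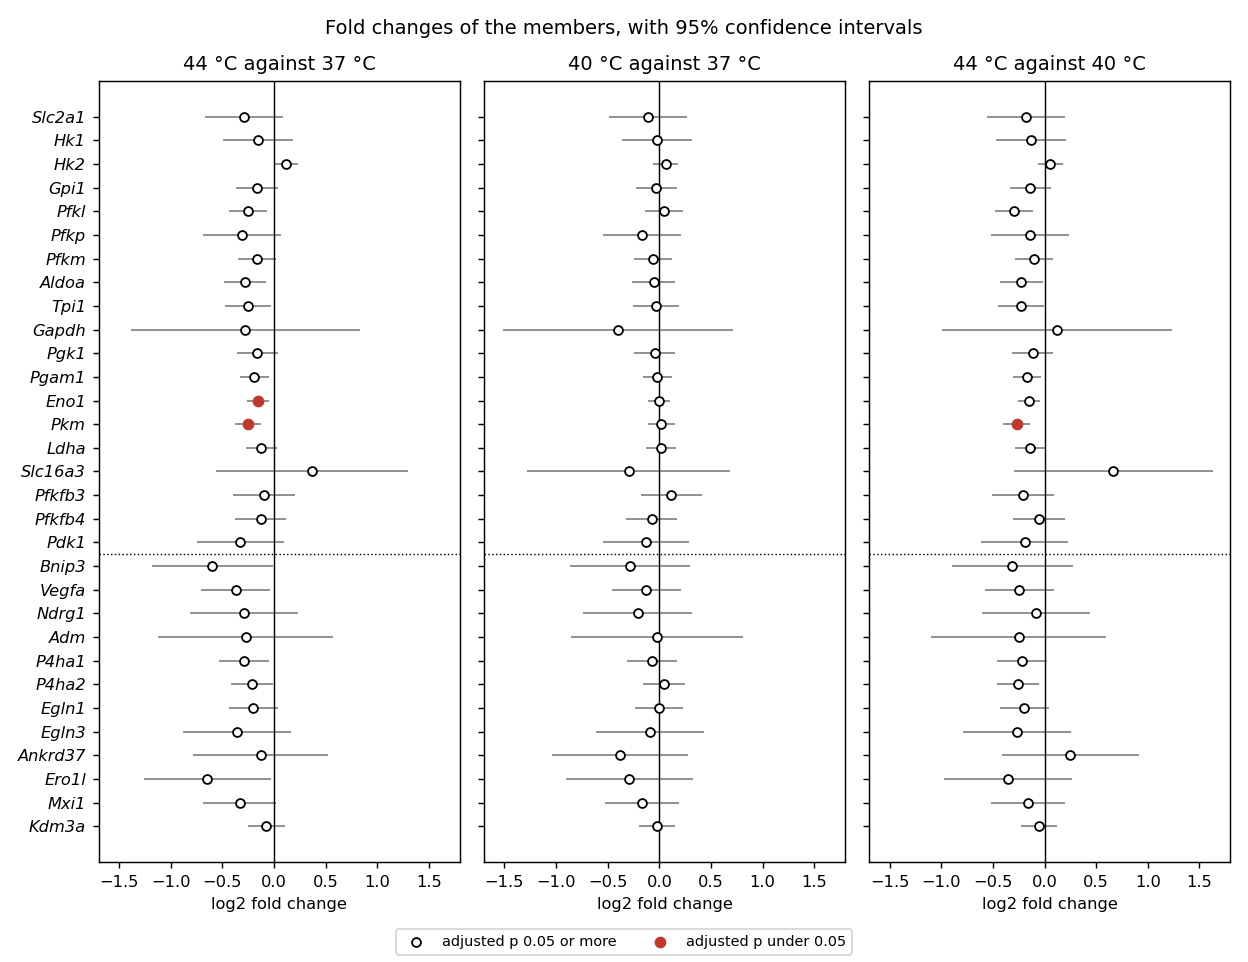
Log2 fold changes of the 31 members (points) with 95% confidence intervals (lines) for the 3 pairs of temperatures, from the edgeR fit; filled points had an adjusted p under 0.05, and the dotted line parts enzymes and transporters (above) from other HIF targets (below). Filled points are Pkm and Eno1 at 44 °C against 37 °C and Pkm at 44 °C against 40 °C, and the intervals of Gapdh, Slc16a3 and Adm are among the widest.

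Pkm (ENSMUSG00000032294, chromosome 9, 59656368 to 59679375, plus strand, mm10) stood at 3928, 3696, 3670 and 3689 CPM in replicates 1 to 4 at 37 °C. At 40 °C it was at 3709, 3522, 3800 and 4161 CPM, and at 44 °C at 3479, 3000, 3183 and 2922. Each library at 44 °C lay below every library at 37 °C and at 40 °C. The group means were 3746 ± 122, 3798 ± 268 and 3146 ± 247 CPM (SD, n = 4). Pkm fell by 16.01% at 44 °C against 37 °C (log2 fold change −0.25, SE 0.0599, edgeR adjusted p = 0.0142). It was also called by the joint test of the 3 temperatures (adjusted p = 0.0166), which called 8.21% of all genes and no other member. The call at 44 °C against 37 °C was made under all 20 alternatives run for it, with adjusted p from 4.04e-05 to 0.0473. The smallest came from the fit with a library score as a covariate, whose p-values are limited as described below.

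Eno1 (ENSMUSG00000063524, chromosome 4, 150236721 to 150248879, plus strand, mm10), the enolase of the step before pyruvate kinase, was at 1245, 1306, 1274 and 1242 CPM at 37 °C. It was at 1240, 1185, 1306 and 1310 CPM at 40 °C and at 1126, 1068, 1228 and 1122 CPM at 44 °C. The 44 °C libraries lay below all 37 °C libraries and overlapped those at 40 °C. Eno1 fell by 10.3% at 44 °C against 37 °C (log2 fold change −0.16, SE 0.0499, edgeR adjusted p = 0.0489). That call was made in 7 of 21 alternatives, over which the adjusted p ran from 0.0148 to 0.148. It was lost on leaving out any 37 °C library, 40 °C replicate 1 or 3, or 44 °C replicate 1, 2 or 4, with adjusted p from 0.0588 to 0.148. Of the 50-base words of its transcript 72.2% also occur in other genes, chiefly its relative Eno1b, and the Eno1 row held 55.0 to 59.8% of the reads summed over it and its copies. Eno1b was at 441 ± 8.74, 485 ± 42.0 and 433 ± 22.2 CPM at 37 °C, 40 °C and 44 °C (SD, n = 4). With the rows of Eno1 and Eno1b summed the log2 fold change was −0.12 (edgeR adjusted p = 0.115), so the values of Eno1 alone are uncertain.

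**Figure D2:**
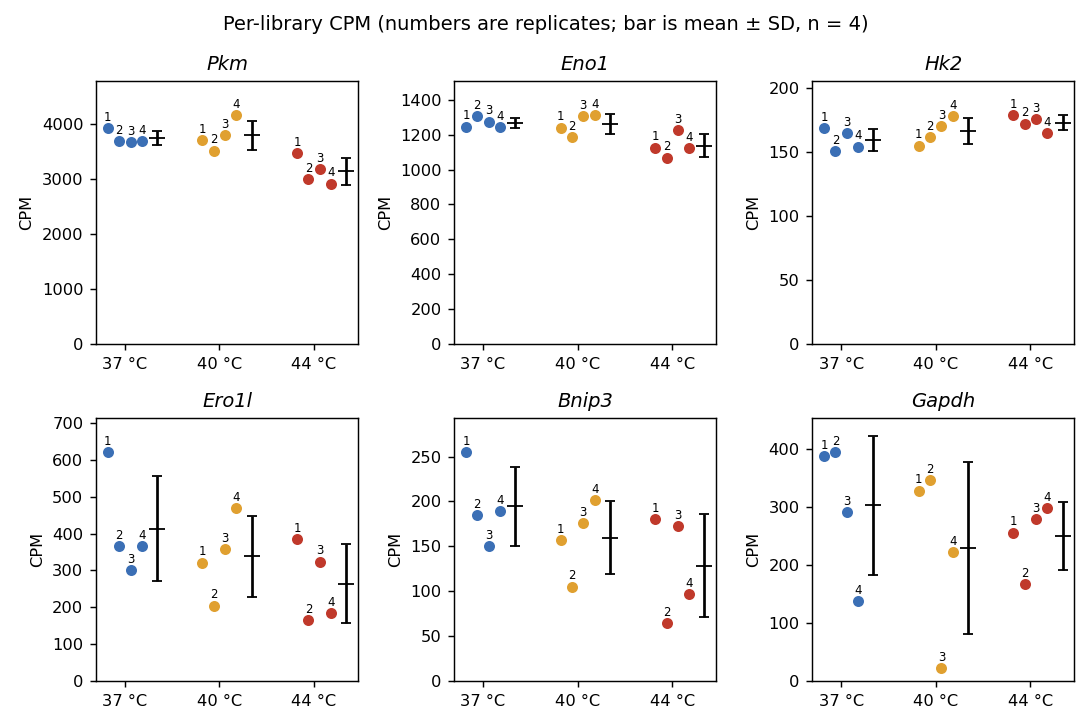
CPM in each of the 12 libraries for 6 members; numbers beside the points are replicates, the bar is the mean ± SD of 4 libraries, and each vertical axis starts at 0. Pkm at 44 °C sits below all other libraries, Ero1l is highest at 621 CPM in 37 °C replicate 1, and Gapdh is at 22.4 CPM in 40 °C replicate 3.

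Besides Pkm and Eno1, the phosphofructokinase Pfkl, the aldolase Aldoa and the phosphoglycerate mutase Pgam1 had every 44 °C library below every 37 °C library. These 5 of 31 members, all enzymes, compare with 9.13% of all genes tested that were separated in that direction and 17.8% in either direction. None of the 12 other HIF targets was separated. The adjusted p of Pfkl, Aldoa and Pgam1 missed the threshold, at 0.0701, 0.0662 and 0.0665 (edgeR).

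Pfkl, which commits sugar to glycolysis, was at 332, 325, 329 and 323 CPM at 37 °C, at 321, 284, 361 and 383 at 40 °C and at 314, 248, 286 and 251 at 44 °C (log2 fold change at 44 °C against 37 °C −0.25, SE 0.0880). Its SD was 3.99 CPM among the 37 °C libraries, 43.7 at 40 °C and 31.3 at 44 °C. Aldoa, which splits the phosphorylated hexose, was at 1043, 917, 870 and 914 CPM at 37 °C, at 886, 774, 935 and 1005 at 40 °C and at 870, 657, 857 and 694 at 44 °C (−0.28, SE 0.0970). The highest library at 44 °C and the lowest at 37 °C were both at 870 CPM when rounded, so the separation is narrow. A second row of the table also named Aldoa held 13 to 39 reads per library against 10818 to 20674 in the row used.

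Pgam1, which shifts the phosphate of phosphoglycerate, was at 502, 489, 485 and 483 CPM at 37 °C, at 455, 448, 523 and 505 at 40 °C and at 459, 389, 465 and 404 at 44 °C (log2 fold change −0.19, SE 0.0655). Tpi1, which interconverts the triose phosphates, was at 1179, 1063, 1037 and 1096 CPM at 37 °C, at 1057, 885, 1109 and 1234 at 40 °C and at 1057, 779, 1014 and 813 at 44 °C (−0.26, SE 0.104, edgeR adjusted p = 0.111). Its groups overlapped, since 44 °C replicate 1 lay above 37 °C replicate 3. In Aldoa and Tpi1 replicates 2 and 4 were the low libraries at 44 °C. Ldha was at 1285, 1235, 1228 and 1229 CPM at 37 °C, at 1216, 1119, 1298 and 1399 at 40 °C and at 1229, 1067, 1226 and 1051 at 44 °C, with a log2 fold change of −0.12 (SE 0.0687, adjusted p = 0.242).

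Hk2, the hexokinase that can bind mitochondria and phosphorylates glucose on entry, was 1 of 2 members with an estimate above 0. It was at 169, 151, 165 and 155 CPM at 37 °C, at 155, 162, 171 and 179 at 40 °C and at 179, 172, 176 and 165 at 44 °C. The groups overlapped, and the log2 fold change at 44 °C against 37 °C was 0.12 (SE 0.0559, edgeR adjusted p = 0.171). Of the summed per-length level of Hk1 and Hk2, Hk2 made up 53.0 ± 3.22% (SD, n = 4) at 37 °C, 54.5 ± 3.86% at 40 °C and 58.0 ± 5.24% at 44 °C. The same shares were 47.3 ± 2.87%, 50.1 ± 1.99% and 47.4 ± 2.49% for Pfkl among the 3 phosphofructokinases, and 46.1 ± 2.65%, 49.4 ± 2.69% and 46.8 ± 1.37% for Pfkfb3 against Pfkfb4, bifunctional enzymes that set the level of the activator of phosphofructokinase. The ranges of all 3 shares overlapped between temperatures. All 3 shares rest on the gene lengths of the count table, and which isoform leads depends on the length used. Hk1 is 8532 bases long there, while its longest protein-coding transcript has 4278 bases, against 5969 and 5513 for Hk2. The other member above 0 was Slc16a3, at 0.770 ± 0.465, 0.640 ± 0.377 and 1.02 ± 0.370 CPM, with a log2 fold change of 0.37 (SE 0.437, adjusted p = 0.607).

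The other 9 enzymes and transporters apart from Gapdh had overlapping groups and log2 fold changes from −0.33 to −0.10, with adjusted p from 0.216 to 0.687 (edgeR). They are Slc2a1, Hk1, the isomerase Gpi1, Pfkp, Pfkm, Pgk1, Pfkfb3, Pfkfb4 and Pdk1, a kinase that restrains the entry of pyruvate into mitochondria. Pdk1 had the lowest estimate among the enzymes, at 119 ± 16.2 CPM (SD, n = 4) at 37 °C, 108 ± 26.3 at 40 °C and 94.6 ± 28.2 at 44 °C. As a share of all counted reads, the 19 enzymes and transporters made up 1.26 ± 0.0802% at 37 °C, 1.23 ± 0.122% at 40 °C and 1.09 ± 0.132% at 44 °C, with ranges of 1.20 to 1.38%, 1.08 to 1.37% and 0.972 to 1.24% that overlapped.

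Gapdh, glyceraldehyde phosphate dehydrogenase, is often used as a reference gene and was the least even member. It was at 387, 395, 291 and 138 CPM at 37 °C, at 328, 346, 22.4 and 222 at 40 °C and at 256, 167, 279 and 298 at 44 °C. The highest library was 17.6-fold above the lowest, and both the highest and a low library lay at 37 °C. Its log2 fold change at 44 °C against 37 °C was −0.28 with an SE of 0.521 (edgeR adjusted p = 0.755). Its SD within temperatures, 1.18 on the log2 scale, was above that of 99.9% of the genes tested.

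Of the 50-base words of the Gapdh transcript 82.5% occur in other genes, mostly processed pseudogenes, and 39 rows of the table share at least 25% of them. Those rows summed to 10351 to 17225 reads per library, and the Gapdh row held 2.63% (40 °C replicate 3) to 33.5% (44 °C replicate 4) of the reads of both. Summed with those 39 rows, a choice made after the values were seen, Gapdh was at 1121 ± 131 CPM (SD, n = 4) at 37 °C, 977 ± 84.4 at 40 °C and 950 ± 95.0 at 44 °C. The log2 fold change of the sum at 44 °C against 37 °C was −0.24 (SE 0.0892, edgeR adjusted p = 0.0874). The reads of Gapdh alone are therefore uncertain. Shared words were also frequent in Pgk1 (68.0%), Pgam1 (41.5%) and Pkm (34.4%), but there the member's own row held at least 98.7% of the reads summed over it and the copies sharing 25% or more.

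**Figure D3:**
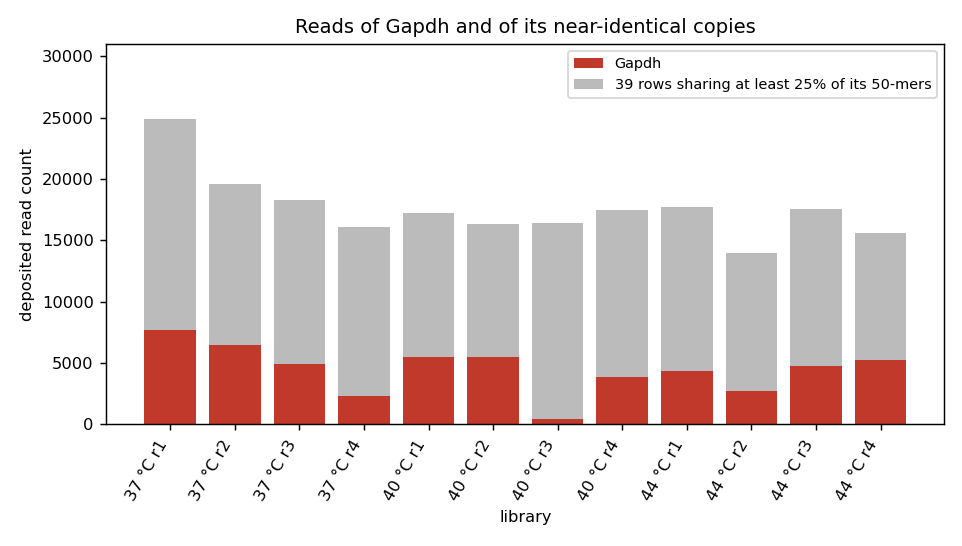
Deposited read counts per library of Gapdh (red) and of the 39 rows that share at least 25% of its 50-base words (grey), stacked. The grey part holds most reads in all 12 libraries, and the red part is smallest in 40 °C replicate 3.

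The 12 other HIF targets had the larger estimates at 44 °C against 37 °C and also the larger spread between libraries of a temperature, and none passed the test. Ero1l (ENSMUSG00000021831, chromosome 14, 45283087 to 45318771, minus strand, mm10) was at 621, 366, 301 and 367 CPM at 37 °C. It was at 321, 204, 357 and 469 CPM at 40 °C and at 385, 165, 324 and 183 CPM at 44 °C. The groups overlapped, and the highest library, 37 °C replicate 1, was 3.76-fold above the lowest, 44 °C replicate 2. The log2 fold change at 44 °C against 37 °C was −0.65 (SE 0.289, 95% confidence interval −1.26 to −0.03, edgeR adjusted p = 0.144).

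Bnip3 (ENSMUSG00000078566, chromosome 7, 138890836 to 138909519, minus strand, mm10) was at 255, 184, 150 and 189 CPM at 37 °C. It was at 157, 105, 176 and 201 CPM at 40 °C and at 180, 64.4, 173 and 97.0 CPM at 44 °C. The libraries that were high and low for Ero1l were also high and low for Bnip3: 37 °C replicate 1 was highest and 44 °C replicate 2 lowest for both. The log2 fold change of Bnip3 was −0.60 (SE 0.273, 95% confidence interval −1.18 to −0.02, edgeR adjusted p = 0.152).

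Vegfa was at 412, 305, 279 and 322 CPM at 37 °C, at 288, 242, 315 and 363 at 40 °C and at 321, 197, 284 and 217 at 44 °C (log2 fold change −0.37, SE 0.157, edgeR adjusted p = 0.124). P4ha1, the catalytic subunit of a collagen prolyl 4-hydroxylase, was at 301, 243, 232 and 247 CPM at 37 °C, at 240, 207, 247 and 278 at 40 °C and at 243, 171, 231 and 189 at 44 °C (−0.29, SE 0.115, adjusted p = 0.1005). P4ha2, its paralogue, was at 120, 103, 103 and 103 CPM at 37 °C, at 105, 94.8, 120 and 123 at 40 °C and at 96.8, 86.4, 106 and 81.1 at 44 °C (−0.21, SE 0.0951, adjusted p = 0.144). In all 3 genes 44 °C replicates 2 and 4 lay lowest among the 44 °C libraries. P4ha1 made up 78.3 ± 0.783% of the summed per-length level of both P4ha genes at 37 °C (SD, n = 4), 76.9 ± 0.872% at 40 °C and 77.2 ± 1.796% at 44 °C. That share rests on the lengths of the count table. P4ha2 has 6239 bases there and 2263 in its longest protein-coding transcript, against 4114 and 4043 for P4ha1.

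Ankrd37, a small ankyrin repeat gene, was at 19.6, 13.6, 9.44 and 13.4 CPM at 37 °C, at 9.30, 5.64, 12.3 and 15.8 at 40 °C and at 18.5, 7.89, 15.9 and 9.15 at 44 °C. Its estimate at 44 °C against 37 °C was −0.13 (SE 0.306, edgeR adjusted p = 0.811) and moved above 0 without 37 °C replicate 1, 44 °C replicate 2 or 44 °C replicate 4, to between 0.0019 and 0.08. Adm spanned the widest range of the 12, 4.04-fold from 9.01 CPM in 40 °C replicate 4 to 2.23 CPM in 44 °C replicate 4. Kdm3a, a histone demethylase, spanned the narrowest, 1.29-fold.

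The oxygen-sensing prolyl hydroxylases Egln1 and Egln3 are themselves HIF targets. Egln1 was at 194 ± 15.8, 194 ± 33.2 and 169 ± 21.9 CPM at 37 °C, 40 °C and 44 °C, and Egln3 at 96.6 ± 20.3, 90.6 ± 24.6 and 75.5 ± 28.8 (SD, n = 4). Egln1, Egln3, Ndrg1, Adm, the MAX-binding repressor Mxi1 and Kdm3a had log2 fold changes at 44 °C against 37 °C from −0.36 to −0.08 with adjusted p from 0.188 to 0.675 (edgeR). As a share of all counted reads the 12 HIF targets made up 0.224 ± 0.0472% at 37 °C, 0.198 ± 0.0458% at 40 °C and 0.174 ± 0.0501% at 44 °C, and the ranges of 0.183 to 0.292%, 0.141 to 0.252% and 0.126 to 0.228% overlapped.

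Within a temperature, the members varied together from library to library. Replicate 1 was the highest of the 4 libraries at 37 °C for 29 of 31 members and at 44 °C for 25, while replicate 4 was the highest at 40 °C for 28. Replicate 2 was the lowest at 40 °C for 27 members, and at 44 °C replicate 2 was the lowest for 19 and replicate 4 for 11. Over all 12 libraries, 37 °C replicate 1 was the highest for 17 members and 40 °C replicate 4 for 10, and 44 °C replicate 2 was the lowest for 15 and 44 °C replicate 4 for 10. All 12 HIF targets lay below their own mean in 40 °C replicate 2, 44 °C replicate 2 and 44 °C replicate 4, and all 12 lay above it in 37 °C replicate 1 and 40 °C replicate 4. The 37 °C libraries held the highest value for 18 members and the lowest for 1, and the 44 °C libraries the highest for 2 and the lowest for 25. Within that order single libraries went the other way: the median HIF target stood 0.50 below its mean log2 CPM in 40 °C replicate 2 and 0.21 above it in 44 °C replicate 1.

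**Figure D4:**
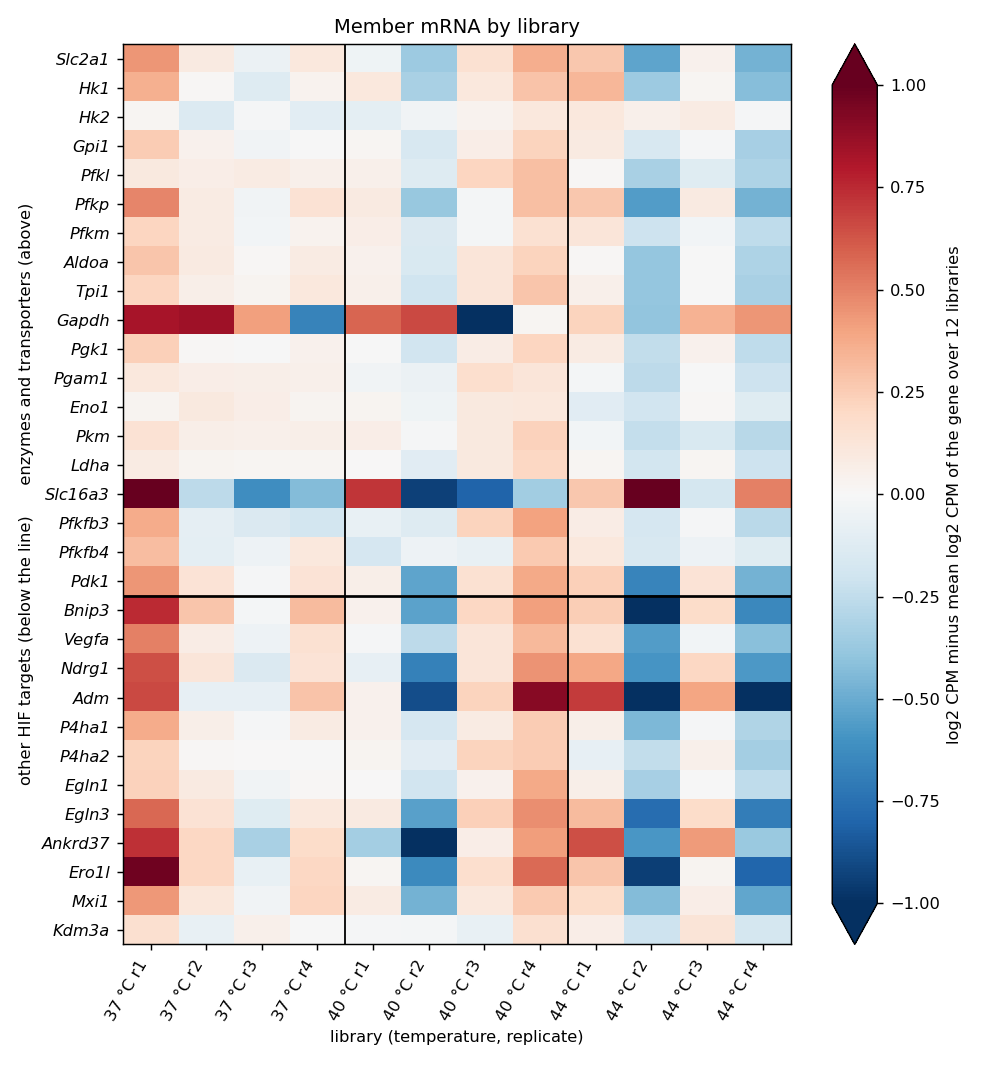
Log2 CPM of each member (row) in each library (column), relative to the gene's own mean over the 12 libraries; red is higher, blue is lower, and the colours stop at 1 in each direction. The columns of 37 °C replicate 1 and 40 °C replicate 4 are red, and those of 40 °C replicate 2 and 44 °C replicates 2 and 4 are blue, most deeply among the HIF targets below the black line.

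The spread differed between the roles. The median SD between libraries of a temperature was 0.37 on the log2 CPM scale for the HIF targets and 0.16 for enzymes and transporters, beside 0.16 for all genes tested and 0.10 for the 6478 genes tested at an average of 32 CPM or more. Eno1 was among the evenest members with an SD of 0.07, as was Pkm with 0.09. Ero1l, with 0.52, exceeded 92.3% of all genes tested, and Bnip3, with 0.51, exceeded 91.5%.

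**Figure D5:**
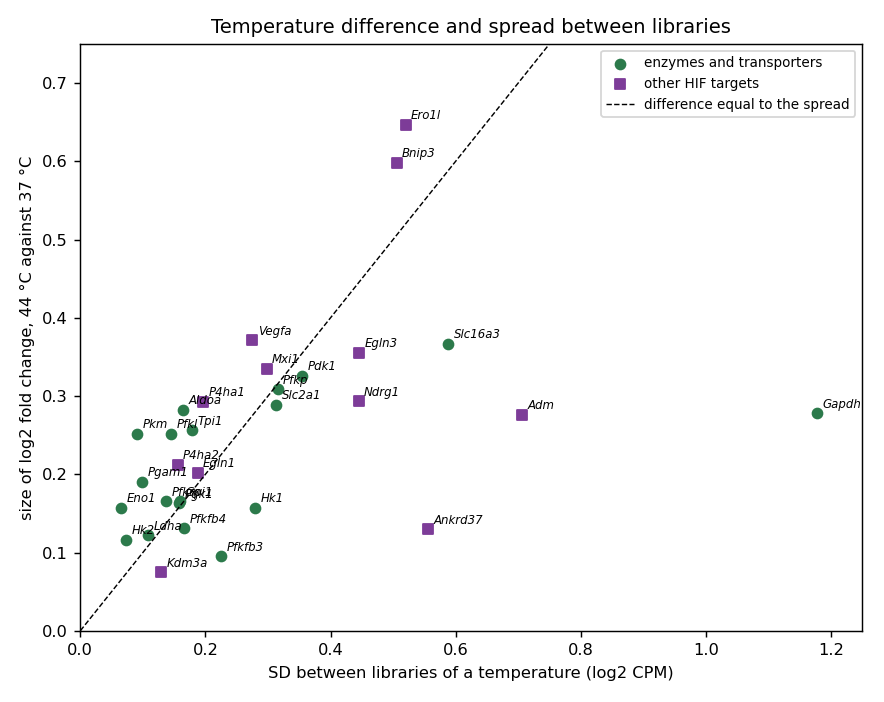
Size of the log2 fold change at 44 °C against 37 °C (vertical) against the SD between libraries of a temperature on the log2 CPM scale (horizontal), for each member; circles are enzymes and transporters, squares other HIF targets, and on the dashed line both are equal. Pkm and Eno1 lie above the line with differences of 0.25 and 0.16 at an SD of 0.09 and 0.07. Ero1l and Bnip3 also lie above it, with differences of 0.65 and 0.60 at an SD of 0.52 and 0.51.

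The same libraries stood apart over the rest of the transcriptome. Each library was scored on the main component of the deviations from the temperature means, built from all tested genes other than the members, which held 29.6% of that variance. The 37 °C libraries scored 1.47, 0.21, −0.40 and 0.41, the 40 °C libraries 0.19, −1.46, 0.27 and 0.95, and the 44 °C libraries 1.07, −1.50, 0.16 and −1.37. A component has no direction of its own, and its sign was set so that scores rose with the mean level of the members. Libraries with high scores were those with high HIF target levels, and the direction of that match was fixed by this choice. The group means of the score were 0.423 ± 0.781, −0.0123 ± 1.02 and −0.411 ± 1.24 (SD, n = 4), and their order is that of the summed share of reads of the HIF targets. With the sign set in this way the mean score was lowest at 44 °C, with groups that overlapped widely. The order is thus no separate support for the levels of the members, and no label names what the score reflects.

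The score was built from the counts of these same libraries to take up their spread, so a fit with it has a smaller spread by construction. Its p-values are therefore too small to be read as those of a measured covariate. With that score as a covariate, 11 of 31 members were called at 44 °C against 37 °C, 10 lower and 1 higher, while 21.8% of all genes were called in either direction and 11.2% lower. The median of the members was then −0.07, against −0.25 without the covariate, and that of all genes 0.0030. The 10 lower were Pfkl, Aldoa, Tpi1, Pgam1, Eno1 and Pkm among the enzymes and Bnip3, Vegfa, P4ha1 and Ero1l among the HIF targets. The estimate of Ero1l was then −0.27 (SE 0.0535, edgeR adjusted p = 0.000808) and that of Bnip3 −0.29 (SE 0.0870, adjusted p = 0.0192), both nearer to 0 than the −0.65 and −0.60 without it. Pkm was at −0.19 (SE 0.0279, adjusted p = 4.04e-05). Hk2 was the member called higher (0.15, SE 0.0455, adjusted p = 0.0224). Adm, Ankrd37, Ndrg1, Hk1 and Pfkfb3 had estimates above 0 with the covariate and none of the 5 was called.

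At 40 °C against 37 °C no member was called and none was lower with an unadjusted p under 0.05, as 3.1% of all genes were; none was higher with such a p either. With the library score as a covariate no member was called, against 0.0763% of all genes in either direction and 0.0485% lower. Over all 14424 genes the edgeR test called 0 (0%), DESeq2 called 4, and 752 had an unadjusted p under 0.05. The median log2 fold change of the members was −0.06, with 25 of 31 below 0, beside −0.00096 and 50.3% for all genes, and this comparison shares the 37 °C libraries with the previous one. Its sign rests on single libraries: the median was 0.01 when 37 °C replicate 1 or 40 °C replicate 2 was left out, −0.04 when 40 °C replicate 1 was, −0.10 when 37 °C replicate 3 was and −0.12 when 40 °C replicate 4 was. The interval of Pkm reached from −0.11 to 0.15 and that of Eno1 from −0.11 to 0.10, whereas that of Ero1l reached from −0.91 to 0.32 and that of Bnip3 from −0.87 to 0.29. Groups were not separated for any member, against 3.83% of all genes.

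At 44 °C against 40 °C, Pkm fell by 17.2% (log2 fold change −0.27, SE 0.0599, edgeR adjusted p = 0.0161) and was the only member called, where 5.02% of all genes were called in either direction, 3.14% lower and 1.88% higher. With library totals in place of TMM the split over all genes was 355 lower and 396 higher, against 453 and 271. It was also the only member with separated groups, against 5.44% of all genes separated in that direction. The call did not hold without 40 °C replicate 4 (adjusted p = 0.0520), 44 °C replicate 2 (adjusted p = 0.0533) or with only the 2 temperatures in the fit (adjusted p = 0.0594), with the estimate between −0.28 and −0.23. The median of the members was −0.17, with 27 of 31 below 0, beside 0.010 and 47.8% for all genes. That median moved to −0.08 on leaving out 40 °C replicate 4, to −0.09 on leaving out 44 °C replicate 2, and to −0.28 on leaving out either 40 °C replicate 2 or 44 °C replicate 1. Eno1 (−0.15, adjusted p = 0.102) and Pfkl (−0.30, adjusted p = 0.0670) missed the threshold. With the library score as a covariate 12 members were called, 11 lower and 1 higher, against 17.6% of all genes in either direction and 9.56% lower. Pkm was at −0.24 (adjusted p = 8.64e-07), and Ankrd37 was the member called higher (0.44, SE 0.105, adjusted p = 0.00463). The limit on p-values from fits with the score holds here too.

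Of 15 genes of the machinery that controls HIF 1 rose and 1 fell at 44 °C against 37 °C, a share near the 13.7% of all genes called in either direction, none was called at 44 °C against 40 °C, and none at 40 °C against 37 °C. Hif1an, the asparagine hydroxylase that blunts HIF activity, was at 43.8 ± 1.55, 45.6 ± 4.08 and 54.1 ± 7.47 CPM at 37 °C, 40 °C and 44 °C (log2 fold change 0.30, SE 0.0903, edgeR adjusted p = 0.0380). Egln2, the prolyl hydroxylase not induced by HIF, was at 54.7 ± 1.40, 55.0 ± 1.92 and 48.0 ± 1.93 CPM (−0.19, SE 0.0543, adjusted p = 0.0344). Hif1a itself, named here although it missed the threshold, was at 299 ± 12.5, 294 ± 31.7 and 262 ± 6.72 CPM (−0.19, SE 0.0665, adjusted p = 0.0671). The call of Hif1an was lost on leaving out any 37 °C library, 40 °C replicate 3, or 44 °C replicate 2 or 4, and that of Egln2 on leaving out any 37 °C library or 44 °C replicate 2 or 3.

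Of 39 genes for other isoforms and neighbouring steps of glycolysis 29 were tested, and at 44 °C against 37 °C 1 fell and 1 rose, where 13.7% of all genes were called in either direction. Bsg, the chaperone that carries lactate transporters to the membrane, was at 684 ± 52.1, 667 ± 74.1 and 560 ± 50.2 CPM (log2 fold change −0.29, SE 0.0824, edgeR adjusted p = 0.0330). Dld, a subunit of pyruvate dehydrogenase and its relatives, was at 160 ± 8.06, 170 ± 8.33 and 186 ± 13.7 CPM (0.22, SE 0.0608, adjusted p = 0.0302). Both calls were lost without 37 °C replicate 1, 2 or 4 or 44 °C replicate 2 or 4.

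The pentose phosphate pathway branches from glycolysis and yields NADPH and ribose. Of its 7 genes 1 fell and 1 rose at 44 °C against 37 °C, and 3 fell at 44 °C against 40 °C, where 13.7% of all genes were called in either direction in the first comparison and 3.14% lower in the second. G6pdx, the enzyme that commits glucose to the pathway, was at 114 ± 3.14, 112 ± 3.33 and 86.6 ± 4.14 CPM at 37 °C, 40 °C and 44 °C, with all 44 °C libraries below all others. Its log2 fold change was −0.39 against 37 °C (SE 0.0498, edgeR adjusted p = 0.000307) and −0.37 against 40 °C (SE 0.0498, adjusted p = 0.000856), and both calls held in all 12 fits with a library left out. Rpia, ribose phosphate isomerase, was at 20.3 ± 1.24, 23.2 ± 2.20 and 25.9 ± 1.04 CPM and rose against 37 °C (0.35, SE 0.0811, adjusted p = 0.0122). The oxidative enzyme Pgd (−0.30, adjusted p = 0.0246) and the transaldolase Taldo1 (−0.20, adjusted p = 0.0404) fell against 40 °C. The call of Pgd was lost without 40 °C replicate 1 or 3 or 44 °C replicate 3, and that of Taldo1 in 9 of 12 such fits.

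Of 36 further HIF targets 34 were tested, and at 44 °C against 37 °C 4 fell and 1 rose, with a median of −0.32 and 25 of 34 below 0. The count of calls lies near the 13.7% of all genes called in either direction. Hmox1, the heme oxygenase, was at 84.3 ± 16.3, 72.6 ± 15.7 and 51.5 ± 8.08 CPM (log2 fold change −0.71, SE 0.157, edgeR adjusted p = 0.00964). Mif, a cytokine, was at 491 ± 5.33, 495 ± 18.7 and 416 ± 23.9 CPM (−0.24, SE 0.0481, adjusted p = 0.00593). Plod1, a collagen lysyl hydroxylase, was at 94.9 ± 1.81, 96.8 ± 7.03 and 80.7 ± 3.93 CPM (−0.23, SE 0.0586, adjusted p = 0.0178). These 3 genes had all 44 °C libraries below all 37 °C libraries.

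Tfrc, the transferrin receptor of iron uptake, rose, at 149 ± 36.8, 201 ± 63.1 and 283 ± 96.1 CPM (log2 fold change 0.93, SE 0.246, edgeR adjusted p = 0.0238). Its groups overlapped, with the lowest library of all in 37 °C replicate 1 and the highest in 44 °C replicate 2. The fourth gene that fell was Bnip3l, the paralogue of Bnip3, named after its value was seen (−0.35, SE 0.110, adjusted p = 0.0470). The call of Tfrc was lost without 37 °C replicate 1, 2 or 4 or 44 °C replicate 2 or 4, that of Bnip3l in those fits and without 40 °C replicate 1 or 3, and that of Plod1 without 44 °C replicate 2. At 44 °C against 40 °C Mif (−0.25, adjusted p = 0.00704) and Plod1 (−0.26, adjusted p = 0.0167) fell, and Plod1 was lost without 40 °C replicate 3 or 44 °C replicate 2. No gene of these 4 lists was called at 40 °C against 37 °C.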

How the data were processed

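Polyadenylated RNA of 12 libraries was sequenced. The deposited values are raw read counts per gene for each library, made by the authors with fastp, HISAT2 2.0.5 and featureCounts 1.5.0-p3 on mm10, per the submitters' processing notes, which also list StringTie 1.3.3b. The handling of strand and of reads that match several genes is not given in the sources used here. The members and lists were chosen with earlier results of these data known.

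Counts were filtered with edgeR 4.0.16 (filterByExpr, minimum count 10, minimum total 15), scaled by TMM and fitted across all genes with 1 mean per temperature (quasi-likelihood test, R 4.3.3, Benjamini-Hochberg adjustment over all genes tested, threshold 0.05). The common biological coefficient of variation was 0.102. The analysis was tested on simulated counts. Alternatives were library totals, RLE factors, DESeq2 1.42.0, no or a stricter filter, a replicate block, the library score as a covariate, only 2 temperatures, each library left out, and Eno1 with Eno1b summed. After the data were seen, Gapdh was also summed with its copies. Shared words of 50 bases were counted in GENCODE vM21 transcripts. All 31 members are reported. Values per library are given for members called in any comparison, also with the score as a covariate, plus Gapdh, and others by mean or range. From each pathway list, called genes are named, at most 4 per comparison by smallest p. The 3 pairs of temperatures share libraries.

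Libraries of a temperature differed beyond sampling noise (chi-square per gene 2.77 to 19.4 over 18 pairs), so each counted as 1 sample.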

Additional observations from a re-analysis of the deposited data

Results flagged for a closer look

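In 6 of the 93 sets of 4 libraries examined (31 members at 3 temperatures), 1 library lay far from the other libraries of its temperature by Dixon's 95% criterion for the gap over the range. About 1 set in 20 does so by chance. In all 6 it was 37 °C replicate 1, and it was the highest. Pkm was at 3928 CPM there and at 3670 to 3696 CPM in the other 37 °C libraries. Pgk1 was at 1540 CPM against 1300 to 1340 CPM, and Ldha at 1285 CPM against 1228 to 1235 CPM. P4ha2 was at 120 CPM against 103 CPM in each of the other libraries. The low-abundance genes Pfkfb3 and Slc16a3 were at 28.0 CPM against 19.04 to 20.3 CPM and at 1.46 CPM against 0.472 to 0.607 CPM. The 6 sets share that library and are not independent. Without it the fall of Pkm at 44 °C against 37 °C was −0.23 on the log2 scale (edgeR adjusted p = 0.0454).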

How the results depend on the processing

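At 44 °C against 37 °C the members called numbered 1 with library totals, 1 with RLE factors, 5 with DESeq2, 10 with no filter, 11 with the library score as a covariate and 1 to 10 with each library left out, against 2 as reported; all genes called numbered 3149 with the score and 979 to 3355 with a library left out, against 1975. At 44 °C against 40 °C the members numbered 3 with DESeq2, 2 with no filter, 12 with the score, 0 with only 2 temperatures in the fit and 0 to 4 with a library left out, against 1; all genes numbered 1211 with DESeq2, 2543 with the score, 334 with only 2 temperatures and 394 to 1265 with a library left out, against 724. At 40 °C against 37 °C no member was called under any alternative, and all genes called numbered 4 with DESeq2, 13 with no filter, 11 with the score and 0 to 1 with a library left out. The joint test called 3 members with DESeq2, 8 with no filter, 12 with the score and 0 to 3 with a library left out, against 1. Calls over all genes moved with the setting too. A count of members without the all-gene count of the same fit is therefore no result about the members. Library totals gave 355 lower and 396 higher genes at 44 °C against 40 °C, where TMM gave 453 and 271.

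At 44 °C against 37 °C the score turned the estimates of Hk1 (0.046), Pfkfb3 (0.059), Ndrg1 (0.025), Adm (0.14) and Ankrd37 (0.26) above 0, and leaving out a library gave −0.16 to 0.049 for Pfkfb3 and −0.35 to 0.076 for Ankrd37. The cause of these shifts was not tested.

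With the replicate number as a block, 7 members were called at 44 °C against 37 °C, 2 at 44 °C against 40 °C, 2 by the joint test and 0 at 40 °C against 37 °C. The counts over all genes with the block are not given here, so these counts are no result about the members. The numbers did not pair the libraries throughout: deviations of same-numbered libraries correlated from −0.21 to 0.37, over 0.1 in 3 of 12 pairs. Only 1 of 12 libraries correlated best with its own number at both other temperatures. The highest values were for replicate 1 between 37 °C and 44 °C (0.37) and replicate 2 between 40 °C and 44 °C (0.32). Whether some numbers mark a shared culture or day was not tested. Genes of a few reads, such as Slc16a3, are limited by depth.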
